A study of Mus musculus with 6 samples.

Results

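The enzymes that cut extracellular matrix and the inhibitors that hold them in check were examined in mouse femurs with and without Wnt7b overexpression. The members were all genes whose symbol starts with Mmp, Adamts or Adamtsl followed by a number, plus Timp1 to Timp4, and 51 of the 22824 genes measured matched. They comprise 23 matrix metalloproteinase (MMP) genes, 19 ADAMTS protease genes, 5 ADAMTS-like (ADAMTSL) genes and 4 tissue inhibitor (TIMP) genes. All femurs came from C57BL/6 mice with a Wnt7b allele at the R26 locus. The OE group also carried Cre under a 9.6 kb Dmp1 sequence, a promoter that works in osteocytes and in late osteoblasts, and its animals were homozygotes. The Ctrl group were littermates with the R26-Wnt7b allele and no Cre. Each group had 3 paired-end RNA-seq libraries, with no age, sex or number of animals per library given. Since no label links a library to an animal of its own, a p-value here reflects only how much these samples vary, and that variation may be technical.

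MMPs are zinc proteases made as inactive proenzymes. Collagenases cut fibrillar collagen, gelatinases degrade the fragments, stromelysins cut proteoglycans and other matrix proteins, and membrane-type MMPs work at the cell surface, where they also activate other MMPs. ADAMTS proteases are secreted and fall into enzymes that trim procollagen, enzymes that cut aggrecan and versican, and more specialised members, while ADAMTSL proteins share their ancillary domains and lack the protease. TIMPs bind the active site of MMPs, and Timp3 also inhibits several ADAMTS enzymes. In bone, osteoblasts, osteocytes, hypertrophic chondrocytes, osteoclasts and marrow neutrophils are known to make different members.

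Values are in FPKM, that is fragments per kilobase of a transcript, scaled to the mapped total, so levels can be set side by side between genes. Absolute depth is unknown, and judged from the smallest steps in the values the libraries differ in it by a factor of at most 1.18. Wnt7b stood at 2.49, 0.661 and 0.295 FPKM in OE 1, 2 and 3, against 0.909 in the library labelled Ctrl 1, with Ctrl 2 at 0.00833 and Ctrl 3 listed at 0. For the targeted gene the library labelled Ctrl 1 is thus inside the range of OE, and every result below is also given without it where that changes the call. Wnt7b differed by 0.65 in log2(FPKM + 1), which is inside the spread of the replicates (exact permutation test, two-sided, p = 0.3; the smallest p possible is 0.1). The labels call the femurs free of cartilage and marrow, but markers of both were present. The 12 neutrophil markers summed to 61349 to 172021 FPKM in OE, against 107423 to 148057 in Ctrl, and all 12 were lowest in OE 3. The 12 chondrocyte markers summed to 364 to 673 FPKM in OE, against 553 in the library labelled Ctrl 1, with Ctrl 2 at 32.1 and Ctrl 3 at 37.6. The osteoblast markers, without Col1a1 and Col1a2 because these are listed at 0 in 2 libraries, summed to 4139 to 6625 FPKM in OE, against 5787 in the library labelled Ctrl 1, with Ctrl 2 at 455 and Ctrl 3 at 368. In whole tissue, fewer cells of a type and less RNA per cell cannot be told apart. How far these marker levels contribute to the results on the members was not tested.

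A few MMPs dominated the family. On the FPKM scale 12 members averaged 10 or more over the 6 libraries, 26 averaged at least 1, and 16 stayed below 1 in every library, of which Mmp1a, Mmp1b, Mmp7 and Mmp20 were listed at 0 throughout. By mean FPKM Mmp9 held rank 117 and Mmp8 rank 191 of all genes, ahead of Mmp13 at rank 415, Mmp2 at rank 1362 and Timp2 at rank 1368. The highest ADAMTS gene was Adamts2 at rank 5322, so the ADAMTS class as a whole was far less abundant than the MMPs. ADAMTS FPKM summed to 83.6, 47.7 and 49.2 in OE and to 54.0, 22.6 and 27.9 in Ctrl, where MMP FPKM summed to 2408, 1984 and 997 in OE and to 2142, 1467 and 1581 in Ctrl.

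**Figure D1:**
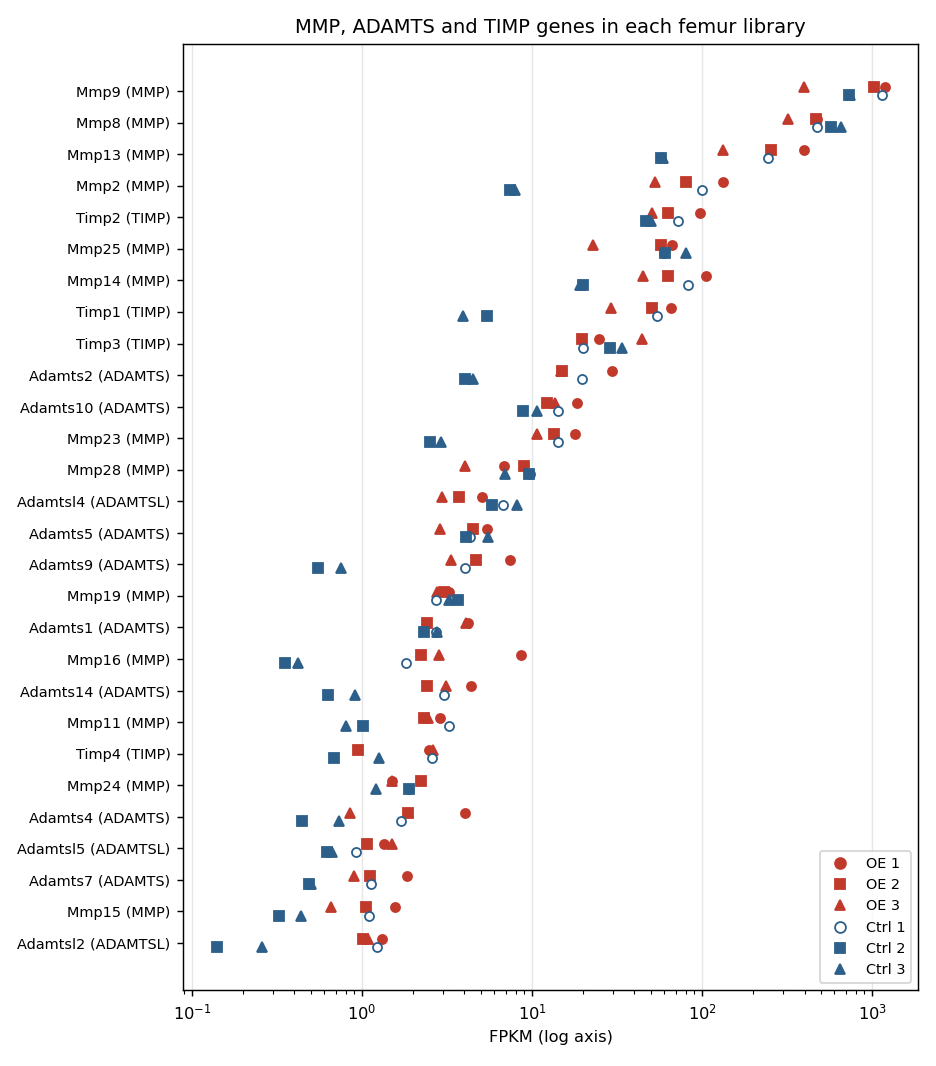
FPKM of the 28 members tested (log axis), 1 point per library, with OE in red above Ctrl in blue and the library labelled Ctrl 1 as an open circle. Members run from Mmp9 at the top to the weakest at the bottom. For Mmp2, Timp1, Adamts2, Mmp23 and Adamts9 the filled blue points of Ctrl 2 and Ctrl 3 lie left of the other 4 libraries, and for Mmp8 they lie right of them.

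The question the design poses for these genes is whether their expression differed between OE and Ctrl bone. With all 6 libraries no member passed an adjusted p of 0.05 by limma, which models log2(FPKM + 1), in either direction (smallest adjusted p = 0.554), and 0% of the 12177 genes tested passed. By the filter for testing, at least 1 FPKM in at least 3 libraries, 28 of the 51 members were tested. Of these 28, 21 had a positive difference OE minus Ctrl and the median was 0.39, beside 43.7% positive and a median of -0.04 over all genes tested. Members that passed the filter only through the higher group had to differ, so these counts describe the 28 and not the family. Among the 47 members with any value above 0, with no filter, 35 were positive, beside 9840 of 19649 genes. At an unadjusted p under 0.05, limma gave 2 members higher in OE, Mmp16 and Adamts9, where 4.12% of all genes were, and 1 lower, Adamtsl4, where 4.08% were. Mmp16 and Adamts9 reached 1 FPKM in OE and the library labelled Ctrl 1 alone, so the filter partly favoured a positive difference for them. At an adjusted p under 0.05, limma without an intensity trend called 0 genes (smallest adjusted p = 0.556). All OE libraries lay above all Ctrl libraries for 2 of the 28, Mmp16 and Adamtsl5, where 4.59% of all genes did. They lay below for 2, Mmp8 and Adamtsl4, where 8.97% of all genes did. Adamtsl5 passed the filter through the 3 OE libraries alone, so its lack of overlap followed from the filter.

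Whether members were called turned on the library labelled Ctrl 1. It was no lower than the lowest OE library for 25 of the 28 members, beside 78.8% of all genes tested. Ctrl 2 and Ctrl 3 both lay below each of the other 4 libraries for 17 of the 28, or 60.7%, beside 16.7% of all genes. For several of the 17 the filter for testing partly set this order. Mmp16, Adamts9, Adamts14 and Adamtsl2 reached 1 FPKM in OE and the library labelled Ctrl 1 alone. Adamtsl5 did so in OE alone, and Adamts4, Adamts7 and Mmp15 in OE 1, OE 2 and the library labelled Ctrl 1 alone. They both lay above the other 4 for 2 members, Mmp8 and Mmp19, beside 14.2% of all genes. OE 1 was the highest library for 17 of the 28, beside 19.2% of all genes. Without the library labelled Ctrl 1, limma called 8 members higher in OE, beside 4.25% of all genes, and 0 lower, beside 0.649%. The 8 were Mmp2, Timp1, Mmp23, Adamts9, Adamts2, Adamts14, Mmp11 and Mmp14, with differences in log2(FPKM + 1) of 0.89 to 3.27. With the remaining 5 libraries brought to a trimmed-mean scale the count was 6 higher and 0 lower, beside 3.76% and 0.526% of all genes, and Adamts14 and Mmp14 were no longer among them. Array weights on all 6 libraries gave 11 members higher and 0 lower, beside 8.18% and 3.27%, and the 4 libraries other than those labelled Ctrl 1 and OE 3 gave 12 and 0, beside 7.92% and 3.48%. The library labelled Ctrl 1 belongs to Ctrl by its labels, and leaving it out was chosen with its Wnt7b level known, so these calls are an alternative reading of the data and not the comparison the labels give.

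**Figure D2:**
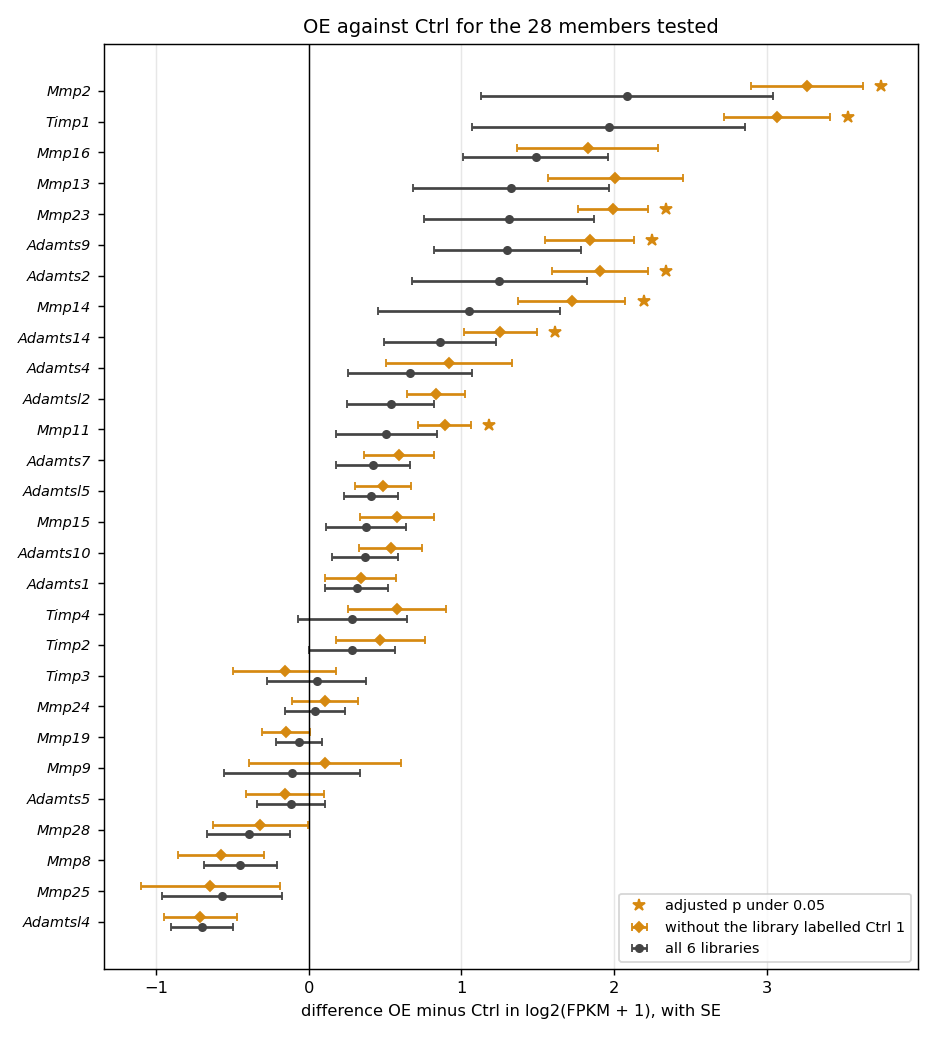
Difference OE minus Ctrl in log2(FPKM + 1) with its standard error for the 28 members tested, with all 6 libraries (grey circles) and without the library labelled Ctrl 1 (orange diamonds). Stars mark the 8 members with an adjusted p under 0.05 without that library, among them Mmp2, Timp1 and Mmp23, and no grey point passed.

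The collagenases had Ctrl 2 and Ctrl 3 at opposite ends, lowest for Mmp13 and highest for Mmp8. Mmp13, the collagenase that rodent osteoblasts and hypertrophic chondrocytes make, stood at 396, 253 and 132 FPKM in OE 1, 2 and 3. The library labelled Ctrl 1 had 243 FPKM, Ctrl 2 had 57.5 and Ctrl 3 had 58.8. Ctrl 2 and Ctrl 3 were the lowest libraries, while the library labelled Ctrl 1 lay between OE 2 and OE 3, so the groups overlapped. The difference for Mmp13 was 1.33 (SE 0.64) in log2(FPKM + 1), with a limma adjusted p = 0.558, and 2.01 (SE 0.44) with adjusted p = 0.0622 without the library labelled Ctrl 1. Mmp8, the collagenase stored in neutrophil granules, stood at 473, 468 and 318 FPKM in OE, against 474, 574 and 660.0 in Ctrl. All OE values lay below all Ctrl values, but OE 1 and the library labelled Ctrl 1 were nearly level. The difference for Mmp8 was -0.45 (SE 0.24), with a limma adjusted p = 0.561. The ratio of Mmp8 to Mpo, a granule enzyme gene of early neutrophil stages, was 0.223, 0.161 and 0.243 in OE and 0.132, 0.146 and 0.195 in Ctrl, so relative to Mpo the order of the groups was not kept. As a ratio of FPKM within each library, Mmp8 over Mmp13 was 1.19, 1.85 and 2.40 in OE, against 1.95 in the library labelled Ctrl 1, with Ctrl 2 at 9.99 and Ctrl 3 at 11.2.

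Mmp13 and Mmp8 belong to the same run of genes. On GRCm38, Mmp13 (ENSMUSG00000050578) lies on the plus strand of chr9:7272514-7283331 with 10 exons, and Mmp8 (ENSMUSG00000005800) on the plus strand of chr9:7558456-7568485, also with 10 exons. They stand 275 kb apart in a run of 10 Mmp genes that spans 427 kb. The 3 expressed genes of this run were Mmp13, Mmp8 and the weakly expressed Mmp27. Mmp27, the next gene after Mmp8 at a gap of 2.91 kb, stood at 0.626, 0.563 and 0.668 FPKM in OE, against 0.674, 1.13 and 1.42 in Ctrl, the same order of the groups as Mmp8. It was not tested because 2 libraries alone reached 1 FPKM. The other 7 genes stayed at or below 0.265 FPKM in every library. These 7 are Mmp12, the macrophage elastase; Mmp3 and Mmp10, the stromelysins; the rodent collagenases Mmp1a and Mmp1b; Mmp20, the enamel protease; and Mmp7, matrilysin.

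**Figure D3:**
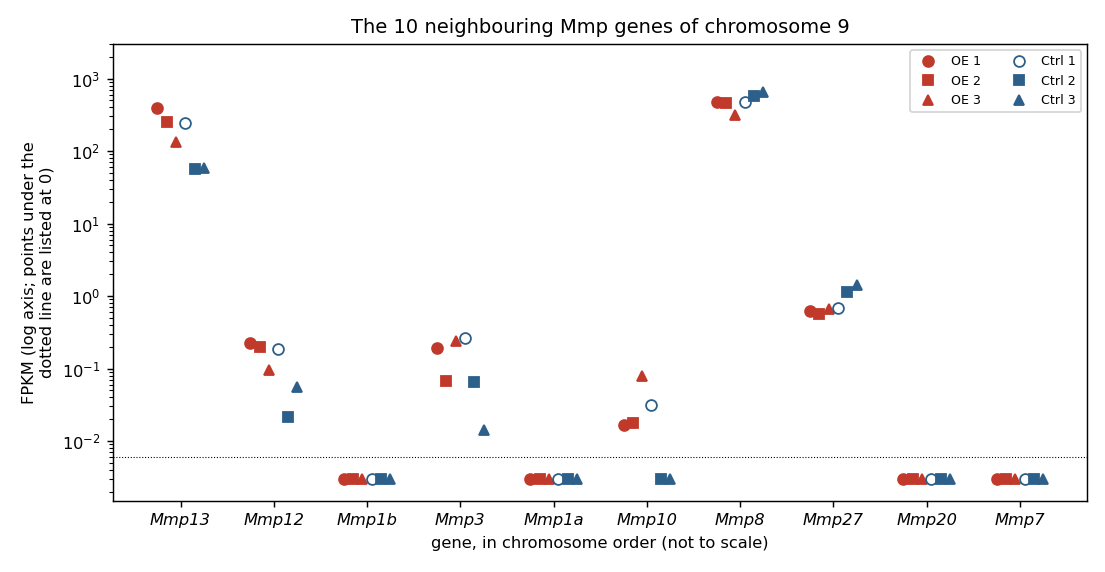
FPKM (log axis) of the 10 Mmp genes of chromosome 9 in their order along it, with OE in red left of Ctrl in blue and the library labelled Ctrl 1 open. Mmp13 and Mmp8 lie above 50 FPKM in every library, Mmp27 lies between 0.563 and 1.42, and Mmp1a, Mmp1b, Mmp7 and Mmp20 are listed at 0.

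The 120 bases before the RefSeq start of each gene of this run are shown because they differ between Mmp13 and Mmp8. Mmp13 is known to be under the control of AP-1 factors and of Runx2. The sequences are from RefSeq on GRCm38.p6, read on the strand of the gene, with Mmp1b on the minus strand and the others on the plus strand. Their windows are Mmp13 at chr9:7272394-7272513, Mmp12 at chr9:7347254-7347373, Mmp1b at chr9:7388027-7388146, Mmp3 at chr9:7445702-7445821, Mmp1a at chr9:7464021-7464140, Mmp10 at chr9:7502222-7502341, Mmp8 at chr9:7558309-7558428, Mmp27 at chr9:7571276-7571395, Mmp20 at chr9:7628111-7628230 and Mmp7 at chr9:7691970-7692089. For Mmp12 and Mmp7, which have 2 listed starts each, the start with an AP-1 match is shown. Capitals mark matches to TGANTCA (AP-1, which reads alike on both strands but for its middle base), to ACCACA on either strand (RUNX) and to TATAAA on the strand of the gene (TATA box), and no matches overlap.
Mmp13: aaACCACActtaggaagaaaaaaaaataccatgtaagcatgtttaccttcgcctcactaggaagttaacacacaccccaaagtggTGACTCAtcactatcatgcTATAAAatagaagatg
Mmp12: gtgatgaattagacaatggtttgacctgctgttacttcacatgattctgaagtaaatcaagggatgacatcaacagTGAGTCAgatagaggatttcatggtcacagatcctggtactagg
Mmp1b: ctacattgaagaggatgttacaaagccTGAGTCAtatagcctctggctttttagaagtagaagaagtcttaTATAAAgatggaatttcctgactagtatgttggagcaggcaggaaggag
Mmp3: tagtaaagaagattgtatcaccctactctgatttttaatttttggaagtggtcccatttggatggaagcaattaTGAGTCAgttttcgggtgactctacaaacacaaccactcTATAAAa
Mmp1a: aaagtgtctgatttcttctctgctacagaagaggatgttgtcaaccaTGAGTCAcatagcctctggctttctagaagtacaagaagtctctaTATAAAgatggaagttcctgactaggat
Mmp10: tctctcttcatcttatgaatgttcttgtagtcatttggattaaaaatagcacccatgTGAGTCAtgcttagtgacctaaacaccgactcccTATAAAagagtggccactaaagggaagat
Mmp8: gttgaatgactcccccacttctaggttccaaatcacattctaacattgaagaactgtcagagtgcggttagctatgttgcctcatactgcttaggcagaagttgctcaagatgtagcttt
Mmp27: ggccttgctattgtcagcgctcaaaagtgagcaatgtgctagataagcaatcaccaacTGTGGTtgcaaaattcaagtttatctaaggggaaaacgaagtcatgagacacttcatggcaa
Mmp20: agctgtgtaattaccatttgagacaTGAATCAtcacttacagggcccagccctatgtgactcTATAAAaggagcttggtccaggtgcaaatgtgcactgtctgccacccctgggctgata
Mmp7: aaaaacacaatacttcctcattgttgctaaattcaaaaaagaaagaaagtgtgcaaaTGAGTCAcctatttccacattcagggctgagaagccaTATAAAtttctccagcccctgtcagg
An AP-1 match stood in 8 of the 10 windows, with its first base 35 to 95 bases before the start, and was not found in those of Mmp8 and Mmp27. The farthest match, in Mmp20, was TGAATCA, with A as its middle base, where the other matches held C or G. Of the 8, 7 also held TATAAA, which began 19 to 45 bases after the first base of the AP-1 match, and Mmp12 did not. Over 250 bases before the start, TGANTCA occurred in 6.75% of 32851 promoters, ACCACA in 14% and TATAAA in 7.59%. Among the members, 36 of 51 matched an entry in the part of that RefSeq table that was searched for them. None of the 26 of these outside this run held TGANTCA there. These matches describe letters in the windows and do not show binding by any factor. Adamts4 to Adamts8, Adamts10, Adamts15, Adamts16, Adamts19, Adamtsl1, Mmp2, Mmp9, Mmp16, Mmp17 and Mmp19 were not matched.

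Of the gelatinases, which cut denatured collagen, Mmp9 was the most abundant member. Mmp2 had the largest difference of the 28 tested in log2(FPKM + 1), while with a pseudocount of 0.1 in place of 1 that of Mmp16 was larger, at 2.35 against 2.18 for Mmp2. Mmp9 (13 exons, plus strand of chr2:164940780-164955850), made by osteoclasts and by neutrophils, stood at 1190.0, 1027 and 399.9 FPKM in OE, against 1145, 726 and 737 in Ctrl. OE 1 was the highest and OE 3 the lowest library, and the means were 872 ± 417 FPKM in OE, against 869 ± 239 in Ctrl (SD, n = 3 each). The difference for Mmp9 was -0.11 (SE 0.45) in log2(FPKM + 1), with a limma adjusted p = 0.944, and it turned to 0.11 without the library labelled Ctrl 1 and to 0.38 without OE 3. Mmp2 (13 exons, plus strand of chr8:92827291-92853420), a gelatinase of mesenchymal cells, stood at 132, 80.7 and 52.5 FPKM in OE. The library labelled Ctrl 1 had 100.5 FPKM, Ctrl 2 had 7.44 and Ctrl 3 had 7.94. Every OE library thus stood far above both Ctrl 2 and Ctrl 3, while that labelled Ctrl 1 was second only to OE 1. The difference for Mmp2 was 2.08 (SE 0.96) with a limma adjusted p = 0.554, and 3.27 (SE 0.37) with adjusted p = 0.00875 without the library labelled Ctrl 1. The ratio of Mmp9 to Mmp2 FPKM was 9.01, 12.7 and 7.61 in OE, against 11.4 in the library labelled Ctrl 1, with Ctrl 2 at 97.6 and Ctrl 3 at 92.8. Relative to Ctsk, the collagen-degrading cathepsin of osteoclasts, Mmp9 stood at 0.948, 1.24 and 0.961 in OE, against 1.05 in the library labelled Ctrl 1, with Ctrl 2 at 5.32 and Ctrl 3 at 7.05.

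**Figure D4:**
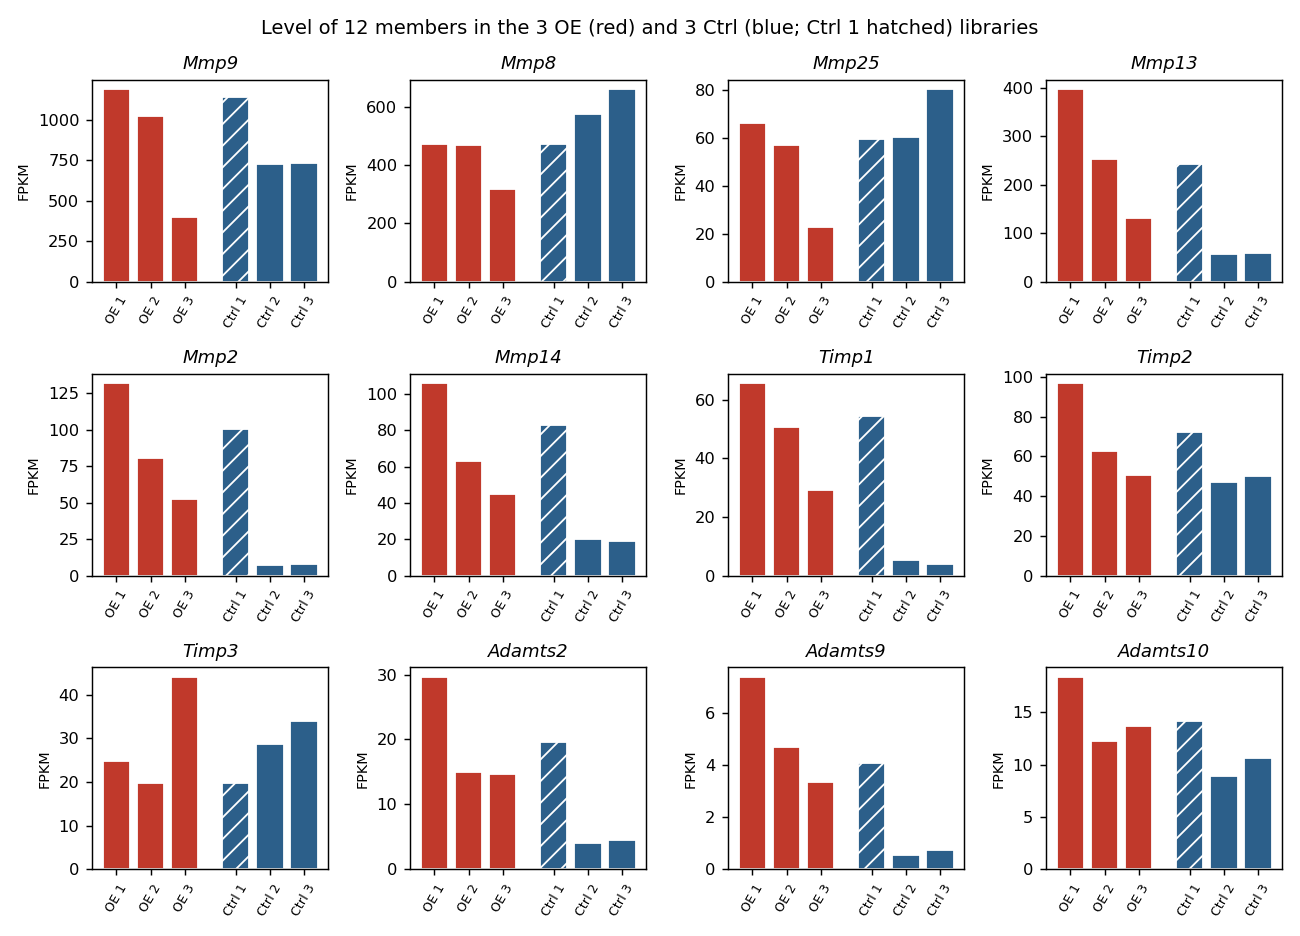
FPKM of 12 members in each library, with OE in red left of Ctrl in blue and the library labelled Ctrl 1 hatched. Bars are single libraries on axes that start at 0. Mmp2, Mmp13, Mmp14, Timp1, Adamts2 and Adamts9 are low in Ctrl 2 and Ctrl 3 alone. Mmp8 is highest in Ctrl 2 and Ctrl 3, with OE 1, OE 2 and the library labelled Ctrl 1 nearly level.

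Among the membrane-type MMPs the 4 with a transmembrane anchor, Mmp14, Mmp15, Mmp16 and Mmp24, had positive differences. That of Mmp24 was 0.04 (SE 0.20) and reversed under some alternatives. The GPI-anchored genes did not share a sign. Mmp25 had a negative difference, and Mmp17, which was not tested, had a positive one of 0.41 with no filter. Mmp14, the cell-surface collagenase that activates proMMP2 (plus strand of chr14:54431612-54445364), stood at 106, 63.0 and 44.7 FPKM in OE, against 82.9, 20.0 and 19.1 in Ctrl. As for Mmp2, the library labelled Ctrl 1 was second to OE 1, and Ctrl 2 and Ctrl 3 were lowest. The difference for Mmp14 was 1.05 (SE 0.60) with a limma adjusted p = 0.564, and 1.72 (SE 0.35) with adjusted p = 0.0479 without the library labelled Ctrl 1. Mmp2 over Mmp14 was 1.25, 1.28 and 1.17 in OE, against 1.21 in the library labelled Ctrl 1, with Ctrl 2 at 0.372 and Ctrl 3 at 0.416, so Mmp2 differed more than Mmp14 between these libraries. Mmp16, the membrane-type enzyme also named MT3-MMP, stood at 8.60, 2.23 and 2.83 FPKM in OE, against 1.80, 0.352 and 0.420 in Ctrl. Mmp16 was the only MMP tested with all OE libraries above all Ctrl libraries, but the margin between OE 2 and the library labelled Ctrl 1 was narrow beside the 8.60 of OE 1. The difference for Mmp16 was 1.49 (SE 0.48) with a limma adjusted p = 0.554, and 1.83 (SE 0.46) with adjusted p = 0.0936 without that library. Mmp25, also named leukolysin and made by neutrophils, stood at 66.1, 57.2 and 22.7 FPKM in OE, against 59.6, 60.6 and 80.3 in Ctrl. OE 3 stood apart at the low end and Ctrl 3 at the high end, and the other 4 libraries lay within 57.2 to 66.1 FPKM, so the groups overlapped. The difference for Mmp25 was -0.57 (SE 0.39) with a limma adjusted p = 0.604. Mmp15 and Mmp24 were near 1 FPKM, with means of 1.09 ± 0.455 and 1.74 ± 0.414 FPKM in OE, against 0.621 ± 0.418 and 1.67 ± 0.397 in Ctrl (SD, n = 3 each). Mmp17, the other GPI-anchored enzyme, stood at 1.04, 0.879 and 0.611 FPKM in OE, against 0.833, 0.238 and 0.154 in Ctrl, and was not tested because OE 1 alone reached 1 FPKM. OE 1 was its highest library, and Ctrl 2 and Ctrl 3 were lowest.

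Of the other MMPs, Mmp23 and Mmp11 shared the low level in Ctrl 2 and Ctrl 3, while Mmp28 and Mmp19 did not. Mmp23, an unusual MMP anchored by its amino end, stood at 17.98, 13.4 and 10.6 FPKM in OE, against 14.2, 2.50 and 2.90 in Ctrl. The library labelled Ctrl 1 lay inside the OE range and the other Ctrl libraries far below it. The difference for Mmp23 was 1.31 (SE 0.56) with a limma adjusted p = 0.554, and 1.99 (SE 0.23) with adjusted p = 0.00969 without the library labelled Ctrl 1. Mmp11, stromelysin 3, stood at 2.88, 2.31 and 2.43 FPKM in OE, against 3.23, 1.01 and 0.809 in Ctrl, so that the library labelled Ctrl 1 was the highest of all. The difference for Mmp11 was 0.51 (SE 0.33) with a limma adjusted p = 0.591, and 0.89 (SE 0.17) with adjusted p = 0.0423 without that library. Mmp28, epilysin, stood at 6.87, 9.02 and 4.05 FPKM in OE, against 9.75, 9.63 and 6.90 in Ctrl, a difference of -0.39 (SE 0.27, limma adjusted p = 0.605) that was -0.12 without OE 3 and -0.62 without OE 2. Its order of libraries was that of 1700020L24Rik, a gene that overlaps it on the opposite strand by 466 bases and stood at 37.0, 51.3 and 21.8 FPKM in OE, against 65.7, 62.2 and 43.4 in Ctrl. Whether the counting used strand is not given in the sources used here, so reads of such pairs may have been shared, and Mmp28 is uncertain for that reason. The same holds for Mmp11, which overlaps Chchd10 by 3367 bases, for Mmp19 with Tmem198b and for Adamts7 with Tbc1d2b, all on opposite strands and all with the partner more abundant. Mmp19, which also cuts basement membrane proteins, had the smallest standard error of the members tested, at 3.23, 3.05 and 2.77 FPKM in OE, against 2.73, 3.67 and 3.24 in Ctrl (difference -0.06, SE 0.15, limma adjusted p = 0.893). Mmp21 stayed at or below 0.0304 FPKM.

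The ADAMTS genes were led by Adamts2, a procollagen N-proteinase, and by Adamts10. Adamts2, which removes the amino propeptide of fibrillar procollagens (22 exons, plus strand of chr11:50602084-50807573), stood at 29.6, 15.0 and 14.7 FPKM in OE, against 19.7, 4.02 and 4.51 in Ctrl. Adamts14, its close relative, stood at 4.36, 2.40 and 3.10 FPKM in OE, against 3.04, 0.629 and 0.909 in Ctrl. In both genes OE 1 was highest, the library labelled Ctrl 1 lay inside the OE range, and Ctrl 2 and Ctrl 3 were lowest. The differences were 1.25 (SE 0.57) for Adamts2 and 0.86 (SE 0.37) for Adamts14, each with a limma adjusted p = 0.554. Without the library labelled Ctrl 1 they were 1.91 (SE 0.31, limma adjusted p = 0.0249) and 1.26 (SE 0.24, limma adjusted p = 0.0384). The remaining N-proteinase, Adamts3, which acts on procollagen II in cartilage, stood at 0.938, 0.981 and 1.03 FPKM in OE, against 0.590, 0.379 and 0.452 in Ctrl. Adamts3 showed no overlap, with OE above Ctrl, at a level under the filter for testing. Adamts10, which binds fibrillin, stood at 18.4, 12.3 and 13.7 FPKM in OE, against 14.2, 8.89 and 10.7 in Ctrl, and its difference of 0.37 (SE 0.22, limma adjusted p = 0.570) was small beside that of Adamts2. The ratio of Adamts2 to Adamts10 was 1.61, 1.22 and 1.08 in OE, against 1.39 in the library labelled Ctrl 1, with Ctrl 2 at 0.452 and Ctrl 3 at 0.423.

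The enzymes that cut aggrecan and versican differed among themselves. Adamts9, a versican-cleaving enzyme with 40 exons, stood at 7.37, 4.68 and 3.35 FPKM in OE, against 4.06, 0.555 and 0.752 in Ctrl. Between OE 2 and OE 3 lay the library labelled Ctrl 1, and Ctrl 2 and Ctrl 3 lay below 1 FPKM. The difference for Adamts9 was 1.30 (SE 0.48) with a limma adjusted p = 0.554, and 1.84 (SE 0.29) with adjusted p = 0.0217 without the library labelled Ctrl 1. Adamts5, the main aggrecanase of mouse cartilage, stood at 5.47, 4.48 and 2.87 FPKM in OE, against 4.31, 4.07 and 5.48 in Ctrl. The groups overlapped for Adamts5 (difference -0.12, SE 0.22, limma adjusted p = 0.862). Its highest libraries, Ctrl 3 and OE 1, were nearly level. The chondrocyte markers summed to 37.6 FPKM in Ctrl 3 and to 581 in OE 1. The ratio of Adamts9 to Adamts5 was 1.35, 1.04 and 1.17 in OE, against 0.942 in the library labelled Ctrl 1, with Ctrl 2 at 0.136 and Ctrl 3 at 0.137. Adamts1, which lies 53.1 kb from Adamts5 on chromosome 16, stood at 4.18, 2.40 and 4.07 FPKM in OE, against 2.73, 2.31 and 2.77 in Ctrl (difference 0.31, SE 0.20, limma adjusted p = 0.592). Adamts4, the other aggrecanase, stood at 4.06, 1.86 and 0.849 FPKM in OE, against 1.69, 0.442 and 0.734 in Ctrl (difference 0.66, SE 0.41, limma adjusted p = 0.579). Adamts15 stood at 2.64, 0.568 and 2.05 FPKM in OE, against 0.699, 0.0784 and 0.187 in Ctrl, the highest value of any member not tested. OE 1 and OE 3 were high and OE 2 lay below the library labelled Ctrl 1, so the groups overlapped. Adamts8, its neighbour at a gap of 20.1 kb on chromosome 9, stood at 0.374, 0.125 and 0.3002 FPKM in OE, against 0.0410, 0.0231 and 0.0664 in Ctrl, and shared with Adamts15 the low value of OE 2 within OE. Adamts20, the last member of this class, stayed at or below 0.0646 FPKM.

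Adamts7 and Adamts12, which cut cartilage oligomeric matrix protein, were near or under 1 FPKM. Adamts7 stood at 1.84, 1.12 and 0.892 FPKM in OE, against 1.13, 0.486 and 0.500 in Ctrl (difference 0.42, SE 0.24, limma adjusted p = 0.567). Adamts12 stood at 1.59, 0.542 and 0.785 FPKM in OE, against 0.446, 0.129 and 0.283 in Ctrl, and was not tested. The groups did not overlap for Adamts12 but did for Adamts7. Adamts6, a relative of Adamts10, stood at 0.838, 0.592 and 0.751 FPKM in OE, against 0.457, 0.409 and 0.497 in Ctrl, again with no overlap and under the filter for testing. Adamts17 stood at 1.12, 0.399 and 0.341 FPKM in OE, against 0.483, 0.0523 and 0.0625 in Ctrl. Adamts18 stood at 0.649, 0.198 and 0.284 FPKM in OE, against 0.241, 0.0388 and 0.046 in Ctrl. OE 1 was highest and Ctrl 2 and Ctrl 3 lowest in both, and Adamts13, which cuts von Willebrand factor, Adamts16 and Adamts19 stayed at or below 0.107 FPKM.

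The ADAMTS-like genes included the one with the smallest unadjusted p of the 28 members tested, Adamtsl4. Adamtsl4, a fibrillin-associated protein, stood at 5.06, 3.73 and 2.94 FPKM in OE, against 6.72, 5.83 and 8.15 in Ctrl. All OE libraries lay below all Ctrl libraries, here with the library labelled Ctrl 1 inside the range of the other Ctrl libraries. The difference for Adamtsl4 was -0.70 (SE 0.21) with a limma adjusted p = 0.554, and -0.71 (SE 0.24) with adjusted p = 0.188 without that library, so its size did not rest on it. Adamtsl5 ran the other way, at 1.35, 1.07 and 1.49 FPKM in OE, against 0.920, 0.620 and 0.662 in Ctrl, with no overlap (difference 0.41, SE 0.18, limma adjusted p = 0.554). Since Adamtsl5 reached 1 FPKM in the OE libraries alone, the filter itself set this lack of overlap. Adamtsl2, known to bind a latent TGF-beta binding protein, stood at 1.32, 1.02 and 1.08 FPKM in OE, against 1.22, 0.139 and 0.258 in Ctrl (difference 0.54, SE 0.28, limma adjusted p = 0.561). Of the class total, Adamtsl4 took 54.4%, 55.8% and 44.6% in OE and 66.5%, 74.7% and 79.2% in Ctrl. Adamtsl3 stood at 0.525 to 0.846 FPKM in OE, against 0.815 to 1.13 in Ctrl, and Adamtsl1 at 0.233 to 0.781 in OE and 0.0768 to 0.432 in Ctrl.

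Among the inhibitors, Timp1 varied most and Timp3 had its own order of libraries. Timp1 (plus strand of chrX:20870166-20874735), an inducible inhibitor of most MMPs, stood at 65.7, 50.8 and 29.1 FPKM in OE. The library labelled Ctrl 1 had 54.5 FPKM, Ctrl 2 had 5.40 and Ctrl 3 had 3.91. The library labelled Ctrl 1 was second only to OE 1, and Ctrl 2 and Ctrl 3 lay far below the other 4 libraries. The difference for Timp1 was 1.97 (SE 0.89) with a limma adjusted p = 0.554, and 3.07 (SE 0.35) with adjusted p = 0.00875 without the library labelled Ctrl 1. Timp1, Timp3 and Timp4 lie inside Syn1, Syn3 and Syn2, neuronal genes of the opposite strand that stayed at or below 0.632 FPKM in every library. Timp2 (minus strand of chr11:118301069-118355740), which inhibits MMP2 and also joins MMP14 in activating it, stood at 96.9, 62.8 and 50.5 FPKM in OE, against 72.3, 47.0 and 49.9 in Ctrl. OE 3 and Ctrl 3 were nearly level, and the difference of 0.28 (SE 0.28, limma adjusted p = 0.717) was within the replicate spread. The Timp2 difference was 0.023 without OE 1 and 0.49 without OE 3, and it was 0.47 with the library labelled Ctrl 1 left out. Timp3 (plus strand of chr10:86300372-86349506), which is held in the matrix and also inhibits ADAMTS enzymes, stood at 24.8, 19.7 and 44.1 FPKM in OE, against 19.9, 28.8 and 33.9 in Ctrl. OE 3 was the highest library and OE 2 the lowest, and the difference of 0.05 (SE 0.33, limma adjusted p = 0.966) turned to -0.27 without OE 3 and to -0.16 without the library labelled Ctrl 1. The macrophage markers summed to 279, 269 and 558 FPKM in OE, against 309, 367 and 313 in Ctrl, so OE 3 was the highest library there as well. It was also highest in the sums of marrow stroma (455 FPKM), adipocyte (208), erythroid (45311), megakaryocyte (2176), B cell and skeletal muscle markers. The part of any of these in the Timp3 level was not tested. Timp4 stood at 2.47, 0.953 and 2.62 FPKM in OE, against 2.58, 0.681 and 1.26 in Ctrl (difference 0.28, SE 0.36, limma adjusted p = 0.777).

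The make-up of the MMP and TIMP classes set Ctrl 2 and Ctrl 3 apart from the other 4 libraries, as a description with no test. Mmp9 held 49.4%, 51.8% and 40.1% of MMP FPKM in OE and 53.5%, 49.5% and 46.6% in Ctrl, with no clear order. Mmp8 held 19.6%, 23.6% and 31.9% in OE, against 22.1% in the library labelled Ctrl 1, with Ctrl 2 at 39.2% and Ctrl 3 at 41.8%. Mmp13 held 16.5%, 12.8% and 13.3% in OE, against 11.4% in the library labelled Ctrl 1, with Ctrl 2 at 3.92% and Ctrl 3 at 3.72%. Mmp2 held 5.48%, 4.07% and 5.27% in OE, against 4.69% in the library labelled Ctrl 1, with Ctrl 2 at 0.507% and Ctrl 3 at 0.502%. The share of Mmp8 was thus highest, and those of Mmp13 and Mmp2 lowest, in Ctrl 2 and Ctrl 3. Among the inhibitors, Timp1 held 34.6%, 37.8% and 23.0% of TIMP FPKM in OE, against 36.5% in the library labelled Ctrl 1, with Ctrl 2 at 6.60% and Ctrl 3 at 4.39%. The enzyme to inhibitor ratio Mmp2 over Timp2 was 1.36, 1.29 and 1.04 in OE, against 1.39 in the library labelled Ctrl 1, with Ctrl 2 at 0.158 and Ctrl 3 at 0.159. Mmp14 over Timp2 was 1.09, 1.004 and 0.886 in OE, against 1.15 in the library labelled Ctrl 1, with Ctrl 2 at 0.426 and Ctrl 3 at 0.383. Mmp9 over Timp1 ran the other way, at 18.1, 20.2 and 13.8 in OE, against 21.002 in the library labelled Ctrl 1, with Ctrl 2 at 134 and Ctrl 3 at 188.

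**Figure D5:**
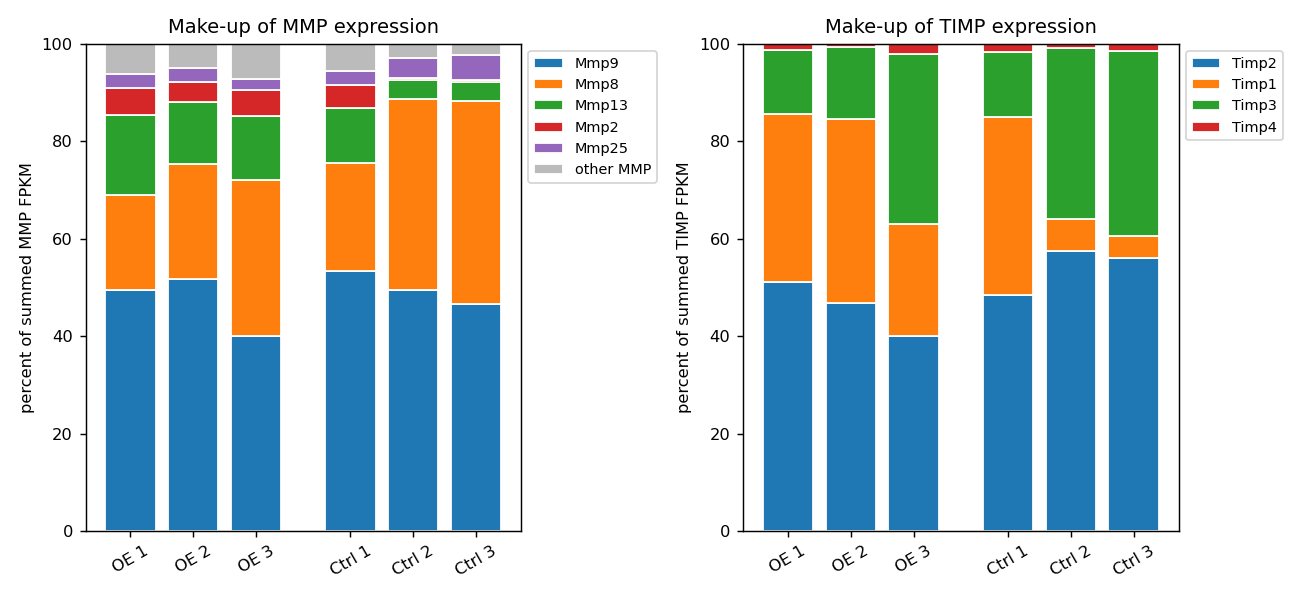
Percent of the summed MMP FPKM (left) and TIMP FPKM (right) taken by each gene in each library, with the OE libraries left of the Ctrl libraries. Timp1 holds 23.0% to 37.8% of TIMP FPKM in OE, against 36.5% in the library labelled Ctrl 1, with Ctrl 2 at 6.60% and Ctrl 3 at 4.39%.

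Grouped by the cell that textbook knowledge names as a main source, the members differed in their order of libraries. These source cells were assigned with earlier results of these data known, so the counts below describe the list and test nothing. No source was assigned to 32 of the 51 members. Of these 32, 12 were tested and 9 had positive differences. Ctrl 2 and Ctrl 3 lay below the other 4 libraries in 5 of the 12, or 41.7%. Among these were Adamts9, Adamtsl2, Adamtsl5 and Mmp15, where the filter partly set this order. The 9 members assigned to osteoblasts, osteocytes and fibroblasts were Mmp2, Mmp11, Mmp14, Mmp16, Mmp23, Adamts2, Adamts14, Timp1 and Timp2. All 9 passed the filter and had positive differences, with a median of 1.25 in log2(FPKM + 1), beside 43.7% positive and a median of -0.04 over all genes tested. In all 9, Ctrl 2 and Ctrl 3 lay below the other 4 libraries, beside 16.7% of all genes. Mmp16 and Adamts14 reached 1 FPKM in those other 4 libraries alone, so the filter partly set their order. Limma called 7 of the 9 higher without the library labelled Ctrl 1, beside 4.25% of all genes. Beside them, the osteocyte markers without Pdpn, which is listed at 0 in a library, summed to 621, 260 and 196 FPKM in OE, against 418 in the library labelled Ctrl 1, with Ctrl 2 at 50.5 and Ctrl 3 at 59.0. The fibroblast, periosteum and tendon markers summed to 460, 357 and 256 FPKM in OE, against 379 in the library labelled Ctrl 1, with Ctrl 2 at 145 and Ctrl 3 at 140. Skeletal muscle markers summed to 1194, 971 and 1248 FPKM in OE, against 1123 in the library labelled Ctrl 1, with Ctrl 2 at 174 and Ctrl 3 at 257. Relative to the osteoblast gene Bglap, Mmp13 stood at 0.146, 0.0779 and 0.0700 in OE, against 0.0953 in the library labelled Ctrl 1, with Ctrl 2 at 0.626 and Ctrl 3 at 1.001. The neutrophil members Mmp8 and Mmp25 had a median difference of -0.51, and OE 3 was the lowest library for both, as for Mmp9 and for all 12 neutrophil markers. Without OE 3 the differences shrank to -0.26 for Mmp8 and -0.10 for Mmp25. OE 3 also stood apart in erythroid markers, which summed to 1395, 2357 and 45311 FPKM in OE, against 1731, 10014 and 5029 in Ctrl. B cell markers summed to 59.1, 115 and 492 FPKM in OE, against 75.8, 69.6 and 53.2 in Ctrl. The osteoclast markers, beside Mmp9, summed to 2740, 1827 and 1139 FPKM in OE, against 2266 in the library labelled Ctrl 1, with Ctrl 2 at 519 and Ctrl 3 at 482. The hypertrophic chondrocyte markers, beside Mmp13, summed to 151, 181 and 99.3 FPKM in OE, against 115 in the library labelled Ctrl 1, with Ctrl 2 at 7.05 and Ctrl 3 at 5.90. Of the 5 members assigned to chondrocytes, Adamts3, Adamts4, Adamts5, Adamts7 and Adamts12, 3 were tested, with differences of -0.12 to 0.66. Whether the members moved with the amount of each cell type or within the cells was not tested.

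The other genes of matrix turnover, from a list of 30 further proteases, 22 regulators and 14 substrates, also held no call with the labels as given. With all 6 libraries limma called 0 of the 24 proteases, 17 regulators and 13 substrates that passed the filter, where 0% of all genes were called. Their median differences in log2(FPKM + 1) were 0.09, 0.29 and 1.30, and without the library labelled Ctrl 1 limma called 7, 5 and 5 of them higher and 0 lower, beside 4.25% and 0.649% of all genes. Adam12, a membrane protease of mesenchymal cells, stood at 13.8, 5.03 and 6.01 FPKM in OE, against 3.93, 0.742 and 1.30 in Ctrl. Mme, which encodes neprilysin, stood at 10.8, 4.78 and 6.84 FPKM in OE, against 3.66, 2.17 and 3.33 in Ctrl. Both had all OE libraries above all Ctrl libraries, with differences of 1.66 (SE 0.48) and 1.02 (SE 0.29) and a limma adjusted p = 0.554 for each. Phex, an osteocyte peptidase of phosphate handling, stood at 33.5, 21.3 and 16.2 FPKM in OE, against 17.8, 1.01 and 1.54 in Ctrl (difference 2.37, SE 0.82). The 3 had the smallest p among the proteases. Among regulators, Slpi, an inhibitor of neutrophil elastase, stood at 324, 545 and 260.5 FPKM in OE, against 630.4, 1027 and 679 in Ctrl, all OE libraries below all Ctrl libraries (difference -1.08, SE 0.34). Pcolce2, an enhancer of procollagen processing, stood at 7.45, 9.17 and 3.78 FPKM in OE, against 5.84, 0.427 and 0.438 in Ctrl (difference 1.62, SE 0.64). Pcsk5, a proprotein convertase, stood at 6.38, 3.44 and 2.95 FPKM in OE, against 4.07, 0.379 and 0.558 in Ctrl (difference 1.19, SE 0.52). In each of Phex, Pcolce2 and Pcsk5 the library labelled Ctrl 1 lay inside the OE range and Ctrl 2 and Ctrl 3 lay below 2 FPKM. Of the substrates, Acan, the core protein of aggrecan, stood at 17.0, 17.2 and 9.26 FPKM in OE, against 11.9, 0.414 and 0.549 in Ctrl (difference 2.30, SE 0.83). Col2a1, the collagen of cartilage, stood at 177, 263 and 134 FPKM in OE, against 183, 8.82 and 13.8 in Ctrl (difference 2.63, SE 1.04), and Col3a1 at 140, 74.0 and 84.1 FPKM in OE, against 106, 13.7 and 13.5 in Ctrl (difference 1.77, SE 0.77). The limma adjusted p with all 6 libraries was 0.554 for each of these 9 genes. Without the library labelled Ctrl 1, limma called 7 of them. The differences were then 2.10 for Adam12 (adjusted p = 0.0389), 3.39 for Phex (0.00444), 2.38 for Pcolce2 (0.0143) and 1.79 for Pcsk5 (0.0249). They were 3.34 for Acan and 3.94 for Col2a1 (limma adjusted p = 0.00388 for both) and 2.72 for Col3a1 (0.00737). Mme and Slpi were not called, with limma adjusted p of 0.127 and 0.170. Acan and Col2a1 were far lower in Ctrl 2 and Ctrl 3 than in the other 4 libraries, while the aggrecanase Adamts5 was not.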

How the data were processed

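RNA from mouse femurs was sequenced in 3 OE and 3 Ctrl paired-end libraries. The authors deposited FPKM values per gene. TopHat2, Cufflinks, DESeq and mm10 are named in the submitters' processing notes, and what each was used for, and in which version, is not given in the sources used here. FPKM is the unit per the file headers. Because the file holds FPKM and not counts, limma was used where the planned design named a count test for counts. An FPKM of exactly 0 can be a failed estimate, as for Col1a1 and Col1a2, listed at 0 in OE 1 and the library labelled Ctrl 1.

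The 12177 genes that reached 1 FPKM in 3 or more libraries were fitted as log2(FPKM + 1) with limma 3.58.1 (lmFit, eBayes with trend, R 4.3.3), with Benjamini-Hochberg adjustment over all of them and a threshold of 0.05. Fold changes on the log2(FPKM + 1) scale understate low genes. Symbols and GRCm38 coordinates came from GENCODE M21, which gave a symbol for 21172 of the 21606 rows with an Ensembl identifier. Promoters came from RefSeq (GRCm38.p6). Tables and figures used Python 3.11.15. The fit was tested on simulated data.

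Members, gene lists, roles and source cells were chosen with earlier results of these data known. All members averaging 1 FPKM or tested were named, and of the other lists the 3 genes of each with the smallest p. Alternatives were other filters, pseudocounts, scalings, no trend, array weights, a replicate block and leaving libraries out. Intervals for depth could not be given, since FPKM hold no read totals.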

Additional observations from a re-analysis of the deposited data

How the results depend on the processing

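With 1 library left out in turn, calls ranged from 0 to 597 over all genes, from 0 to 8 over the members and from 0 to 17 over the other matrix genes, and leaving out the library labelled Ctrl 1 was the only such omission with any call. Array weights gave 1394 genes, 11 members and 24 other matrix genes. Without the libraries labelled Ctrl 1 and OE 3 the counts were 1388, 12 and 25. With the library labelled Ctrl 1 left out and trimmed-mean scaling, an alternative chosen after seeing the data, they were 522, 6 and 15. No filter, a filter of 5 FPKM, a pseudocount of 0.1, both scalings, no trend and the replicate block gave 0 calls, with a smallest adjusted p of 0.191 under the replicate block. Deviations from the group means correlated at 0.442, 0.0866 and 0.311 between libraries numbered 1, 2 and 3, and Ctrl 2 correlated more with OE 3 (0.416) than with OE 2, so the numbers were not taken as pairs. The Wnt7b difference ranged from 0.24 to 0.96 with 1 library left out and was 2.05 with a pseudocount of 0.1. The direction held in 23 of the 28 members tested under all alternatives run. Those that reversed, with the range over leaving out 1 library in turn, were Mmp9 (-0.41 to 0.38), Timp3 (-0.27 to 0.29), Adamts5 (-0.28 to 0.091), Mmp19 (-0.15 to 0.014) and Mmp24 (-0.091 to 0.10). Array weights reversed 4 of these, to 0.35 for Mmp9, -0.18 for Timp3, 0.11 for Adamts5 and -0.046 for Mmp24. Without the libraries labelled Ctrl 1 and OE 3 the reversed values were 0.60 for Mmp9, -0.48 for Timp3 and 0.054 for Adamts5. Without the library labelled Ctrl 1 and with trimmed-mean scaling they were 0.18 for Mmp9 and -0.092 for Timp3, and with scaling without marrow and muscle genes 0.0093 for Mmp19. The cause was not tested. Scaling moved the median difference of all genes from -0.04 to 0.02 or 0.04. Depth is unknown, so values under 1 FPKM have no stated precision.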
